A study of Mus musculus with 8 samples.

Results

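The heat shock chaperones of the cytosol and of the mitochondrial matrix were followed as 10 genes: Hspa1a, Hspa1b, Hspa8, Dnajb1, Hsph1, Hspb1, Hsp90aa1, Hsp90ab1, Hspd1 and Hspe1. They were chosen by gene symbol, which is the only identifier in the count table, and all 10 were found among its 21154 genes. All 10 also passed the filter on low counts that left 15373 genes for testing. Their mRNA was compared between sorted osteoblasts, which build bone matrix, of doxorubicin-injected mice (DOX, 5 libraries) and of mice injected with phosphate-buffered saline (PBS, 3 libraries). The question is what a course of chemotherapy leaves behind in these cells once treatment has ended.

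Both groups were female Col2.3-GFP mice, in which a fragment of the Col1a1 promoter drives green fluorescent protein in bone-forming cells, so the sort selects cells by this transgene and not by a surface marker. The mice were 8 to 10 weeks old at treatment. DOX mice received 4 intravenous injections of doxorubicin, an anthracycline that damages DNA, at 5 mg/kg and 1 week apart, and PBS mice received PBS on the same schedule. Bone was taken 8 weeks after treatment, and bone chips were digested for 25 min at 37 °C before GFP-positive cells were sorted. The library titled DOX replicate 1 carries a treatment tag of PBS. It was grouped by its title, and results that rest on it are also given with it left out or treated as PBS. The labels name 2 batches without saying what was shared within them: DOX replicates 1 and 2 and PBS replicate 1 formed batch 1, and DOX replicates 3 to 5 and PBS replicates 2 and 3 formed batch 2. The titles call the replicates biological, with no animal named, so p-values measure the spread between these libraries.

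Heat shock proteins are chaperones that bind unfolded protein chains, keep them from clumping and help them fold. Most of them are made all the time, but a few, above all the inducible HSP70 pair Hspa1a and Hspa1b, are nearly silent until heat, proteotoxic drugs or the handling of cells releases the transcription factor HSF1. HSF1 then binds heat shock elements, inverted repeats of the bases GAA, in the promoters of these genes. Osteoblasts secrete large amounts of collagen, which folds with chaperones of the endoplasmic reticulum, while the genes described here serve the cytosol, the nucleus and the mitochondria.

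The promoters show which of the members carry the letters of such elements close to their start. The sequences are from RefSeq on build GRCm38.p6, which is older than the build used for the counts, and windows were found for 7 of the 10 members, with none for Hspa8, Hsp90aa1 or Hsp90ab1. Capitals mark each match to a pair of inverted units, GAANNTTC or TTCNNGAA. Either motif reads the same on both strands, and overlapping matches were counted. The 250 bases before the start are shown for Hspa1a (chr17:34972157-34972406, minus strand), Hspa1b (chr17:34959239-34959488, minus strand) and Hspb1 (chr5:135887669-135887918, plus strand), since these members varied most between libraries.
Hspa1a: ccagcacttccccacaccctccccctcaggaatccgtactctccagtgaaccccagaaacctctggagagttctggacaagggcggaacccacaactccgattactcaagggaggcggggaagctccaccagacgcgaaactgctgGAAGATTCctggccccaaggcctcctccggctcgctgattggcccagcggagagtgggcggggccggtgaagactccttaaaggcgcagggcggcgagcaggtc
Hspa1b: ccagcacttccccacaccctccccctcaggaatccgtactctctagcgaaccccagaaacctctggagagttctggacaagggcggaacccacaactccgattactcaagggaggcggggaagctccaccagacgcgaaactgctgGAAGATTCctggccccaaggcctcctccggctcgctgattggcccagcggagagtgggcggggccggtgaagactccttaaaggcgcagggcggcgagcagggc
Hspb1: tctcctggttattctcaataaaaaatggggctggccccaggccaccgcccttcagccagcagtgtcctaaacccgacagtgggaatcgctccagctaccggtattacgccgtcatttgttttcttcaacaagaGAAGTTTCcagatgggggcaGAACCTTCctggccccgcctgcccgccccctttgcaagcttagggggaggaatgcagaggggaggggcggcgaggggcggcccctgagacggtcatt
For Hspe1 (chr1:55088053-55088082, plus strand) and Hsph1 (chr5:149636351-149636380, minus strand) the 30 bases around the matches are shown, because they hold a chain of units and a single pair.
Hspe1: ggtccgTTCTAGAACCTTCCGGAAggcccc
Hsph1: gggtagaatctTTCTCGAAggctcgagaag

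Hspa1a and Hspa1b have nearly the same promoter. The windows differed at 3 of 250 bases, shared an unbroken run of 201 bases, and each held 1 pair of units starting 104 bases before the start. Hspb1 held 2 pairs, at 117 and 97 bases. The stretch printed for Hspe1 lies between the start of Hspe1 and the divergent start of Hspd1 at 55087932. It is therefore in the window of Hspe1 and in 1 of the 2 windows of Hspd1. The other Hspd1 window, of a start at 55088243, held no pair. The stretch printed for Hspe1 holds 3 overlapping pairs, which make 2 overlapping matches to a chain of 3 units (GAANNTTCNNGAA or TTCNNGAANNTTC). Dnajb1 has 2 windows, and neither held a pair. A pair was present in 12.8% of 32851 RefSeq promoter windows and a chain of 3 units in 0.466%, each over the 250 bases before a start. A match is a run of letters and not a measured binding site.

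All libraries had the profile of osteoblasts. Totals ran from 39419027 to 44151882 counts in DOX and from 40985302 to 44299591 in PBS. Col1a1 and Col1a2 took 23.2 to 35.5% of counts in DOX and 19.1 to 39.5% in PBS, and all 14 osteoblast markers had counts in every library. DOX replicate 1 and PBS replicate 1 stood apart, with the lowest collagen shares (23.2% and 19.1%) and the highest hemoglobin shares (0.0120% and 0.0167%, against at most 0.00283% elsewhere). The 10 chaperone genes together took 0.107 to 0.166% of counts in DOX and 0.0798 to 0.173% in PBS. In bulk libraries fewer cells with a transcript and less of it per cell cannot be told apart.

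Constitutive members made up most of this mRNA. Set per kilobase of transcript, so that genes can be compared, Hspa8, the constitutive HSP70 of the cytosol, stood highest, at a mean of 199.9 CPM per kb over the 8 libraries (CPM are counts scaled to a common library size with TMM factors). Hsp90ab1, the constitutive HSP90, followed at 149 CPM per kb, Hspe1 at 59.8, Hspd1 at 45.3, Hsp90aa1 at 26.4 and Dnajb1 at 24.1. The low end held Hsph1 at 5.01, Hspa1b at 3.08, Hspa1a at 1.97 and Hspb1 at 1.50 CPM per kb. Neighbours in this order were separated, with no overlap of their ranges over the libraries, only at Hsp90ab1 over Hspe1, Hspd1 over Hsp90aa1 and Dnajb1 over Hsph1. The other neighbours overlapped and their order is not firm. Levels of genes that share sequence with other transcripts, given below, also depend on how the authors treated such reads.

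The 3 lowest genes also varied most. The highest library was 29.0 times the lowest for Hspb1 and 15.3 times for both Hspa1a and Hspa1b, against 1.30 times for Hsp90ab1, 1.37 times for Hsp90aa1 and 1.39 times for Hspd1. The SD of log2 CPM over the 8 libraries placed Hspb1, Hspa1b and Hspa1a at percentiles 94.4, 91.0 and 90.4 of the tested genes, and Hsp90ab1, Hsp90aa1 and Hspd1 at percentiles 7.51, 10.3 and 14.6. Hsph1, Hspe1, Dnajb1 and Hspa8 lay between, at percentiles 60.9, 59.1, 50.9 and 40.4.

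**Figure D1:**
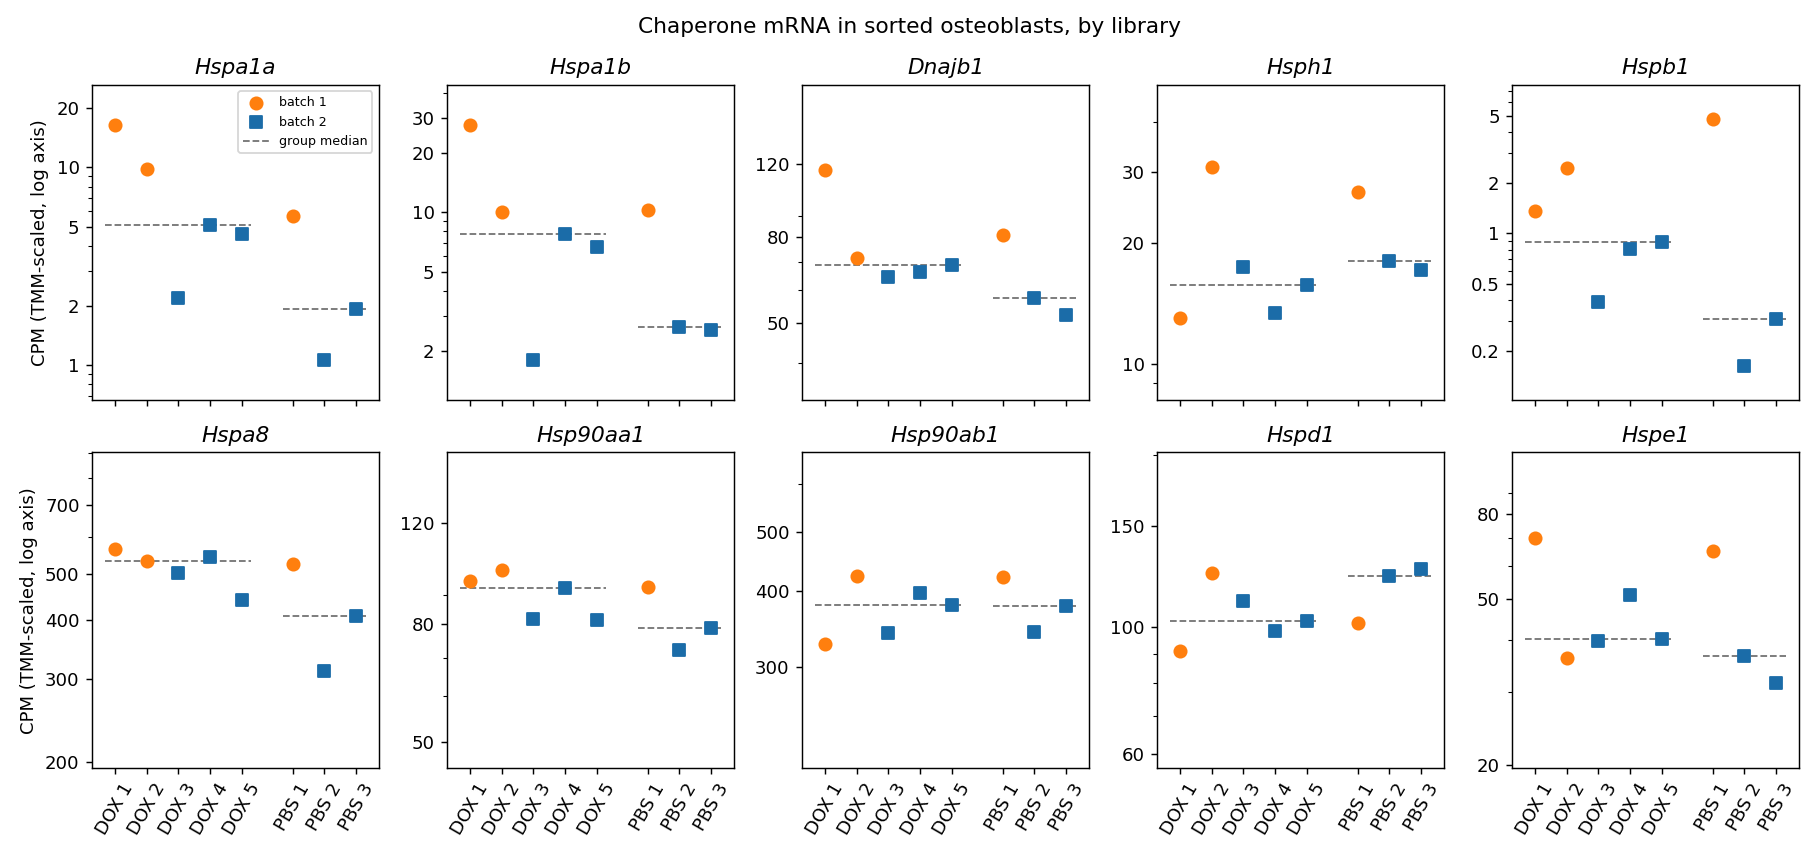
Expression of the 10 chaperone genes, in CPM with TMM scaling on a log axis, for each DOX and PBS library; orange circles are batch 1, blue squares batch 2, and dashed lines are group medians. Hspa1a, Hspa1b and Hspb1 span more than the other members, and the batch 1 libraries of these genes lie above all batch 2 libraries.

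None of the 10 genes passed the threshold of 0.05 for DOX against PBS. EdgeR's quasi-likelihood test, with batch as a term and Benjamini-Hochberg adjustment over 15373 genes, called 0 of the 10 members and 0% of all tested genes, and every member had an adjusted p of 0.995. One member, Hspa1a, had an unadjusted p under 0.05, as did 3.71% of all tested genes. DESeq2 called 0 of the 10 members and 15 genes in all (0.0976%), with 3 members at an unadjusted p under 0.05 (Hspa1a, Hspa1b and Hspa8) beside 4.74% of tested genes. Limma-voom called 0 members and 0 genes, with 3 members at an unadjusted p under 0.05 (Hspa1a, Hspa8 and Dnajb1) beside 10.2% of tested genes. The log2 fold changes of the members had a median of 0.19, against 0.02 over all tested genes, and 7 of 10 lay above 0, as did 53% of all tested genes. With library size as the scaling in place of TMM, 8 of 10 lay above 0, as did 66.1% of all tested genes. Of the members, 0 had every DOX library above every PBS library, as 1.24% of tested genes had, and 0 had every DOX library below, as 1.19% had.

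The inducible HSP70 genes had the largest fold changes among the members. Hspa1a stood at 16.3, 9.85, 2.19, 5.13 and 4.61 CPM in DOX replicates 1 to 5, against 5.65, 1.06 and 1.93 CPM in PBS replicates 1 to 3. Within each batch every DOX library lay above every PBS library, but the DOX libraries of batch 2 lay below PBS replicate 1, so the groups overlapped. The fitted log2 fold change was 1.33 ± 0.34 (SE; 95% interval 0.57 to 2.09), with an unadjusted p of 0.00292 and an adjusted p of 0.995 in edgeR's test. DESeq2 gave Hspa1a an adjusted p of 0.0905. The difference of mean log2 CPM was 1.16 in batch 1 and 1.35 in batch 2. Without DOX replicate 1 the log2 fold change of Hspa1a was 1.22, and with that library counted as PBS it was 0.85.

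Hspa1b, the neighbouring copy that encodes almost the same protein, was at 27.4, 9.97, 1.80, 7.71 and 6.66 CPM in DOX, against 10.3, 2.62 and 2.55 CPM in PBS. DOX replicate 1 was far above the rest, while DOX replicate 3 was the lowest of all 8 libraries, so the groups overlapped also within batch 2. Its log2 fold change was 0.99 ± 0.46 (SE; 95% interval -0.03 to 2.00). It was 0.72 without DOX replicate 1 and 0.38 with that library counted as PBS. Counts of this pair are uncertain one by one, because 47.1% of the 100-base stretches of the Hspa1a transcript also occur in Hspa1b, in the GENCODE M21 transcripts. Summed into 1 gene, a step added after the values were seen, the pair had 43.7, 19.8, 3.99, 12.8 and 11.3 CPM in DOX, against 15.9, 3.68 and 4.48 CPM in PBS. For this sum edgeR's test gave 1.12 ± 0.38 (log2 fold change, SE) with adjusted p = 0.995. Gm20481, on the other strand, overlaps 564 bases of Hspa1a exons, has no row in the table, and cannot be separated from it without strand.

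Hspa8 had a small positive fold change that did not pass the test. It stood at 565, 533, 502, 543 and 440 CPM in DOX, against 525, 312 and 408 CPM in PBS. In batch 2 the 3 DOX libraries lay above both PBS libraries, and in batch 1 both DOX libraries lay just above PBS replicate 1. Its log2 fold change was 0.31 ± 0.15 (SE; 95% interval -0.02 to 0.64), and the difference of mean log2 CPM was 0.06 in batch 1 and 0.47 in batch 2. Without PBS replicate 2 the log2 fold change of Hspa8 was 0.17. Of the 100-base stretches of Hspa8, 63.4% also occur in other transcripts, most of them in Gm15459, so part of its count depends on how the authors treated such reads.

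The partners of HSP70 gave no common pattern. Dnajb1 encodes a J-domain protein that hands clients to HSP70 and starts its ATP cycle, and it was at 115.6, 71.4, 64.3, 66.1 and 68.8 CPM in DOX, against 81.1, 57.4 and 52.2 CPM in PBS. DOX replicate 1 was the highest library, and the other DOX libraries lay between PBS replicate 1 and the other PBS libraries. For Dnajb1 the log2 fold change was 0.25 ± 0.15 (SE; 95% interval -0.09 to 0.59), with 0.14 without DOX replicate 1 and 0.02 with that library counted as PBS. Hsph1 encodes an HSP110 protein, which exchanges the nucleotide of HSP70, and it was at 13.0, 30.8, 17.5, 13.4 and 15.7 CPM in DOX, against 26.8, 18.0 and 17.1 CPM in PBS. DOX replicate 2 and PBS replicate 1 were high and DOX replicate 1 was the lowest, the reverse of its place for Dnajb1. The log2 fold change of Hsph1 was -0.22 ± 0.24 (SE; 95% interval -0.74 to 0.31), and 0.12 with DOX replicate 1 counted as PBS. It was -0.064 without DOX replicate 1 and -0.43 without DOX replicate 2. Neither gene shares a 100-base stretch with another transcript.

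Hspb1 encodes HSP25, the mouse form of the small heat shock protein HSP27, which holds unfolded proteins until HSP70 takes them over. It was at 1.35, 2.46, 0.394, 0.808 and 0.893 CPM in DOX, against 4.75, 0.164 and 0.312 CPM in PBS, which is 16 to 99 counts in DOX and 6 to 253 counts in PBS. The batches went opposite ways: in batch 1 both DOX libraries lay below PBS replicate 1, and in batch 2 the 3 DOX libraries lay above both PBS libraries. The difference of mean log2 CPM was -1.36 in batch 1 and 1.36 in batch 2. A test of the difference between batches gave a log2 interaction, batch 2 minus batch 1, of 2.87 ± 0.95 (SE), with an unadjusted p of 0.0141 and an adjusted p of 0.319 in edgeR's test. That test called 0 members and 0% of all genes, and it rests on PBS replicate 1 as the only PBS library of batch 1. It called 10 genes with DOX replicate 1 left out and 58 genes with DOX replicate 2 left out, with 0 members in either. Over all libraries the log2 fold change of Hspb1 was 0.25 ± 0.66 (SE). It was 0.70 without DOX replicate 1 and 0.84 with that library counted as PBS, -0.57 with no batch term, 1.56 without PBS replicate 1 and -0.30 without PBS replicate 2. Leaving out any other library but DOX replicate 3 also moved it by more than 1.5 times, to between -0.08 and 0.48. Of its 100-base stretches, 42.7% also occur in the pseudogene Hsp25-ps1.

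The HSP90 genes were the steadiest of the cytosolic members. HSP90 acts late in folding, on kinases and steroid receptors. Hsp90aa1, its inducible form, was at 95.0, 99.2, 81.9, 92.4 and 81.4 CPM in DOX, against 92.7, 72.2 and 78.8 CPM in PBS. In batch 2 every DOX library lay above both PBS libraries, and the groups overlapped over all libraries. Its log2 fold change was 0.14 ± 0.11 (SE; 95% interval -0.11 to 0.38), and 0.089 without PBS replicate 2. Hsp90ab1, the constitutive form, was at 326, 423, 341, 397 and 379 CPM in DOX, against 422, 342 and 378 CPM in PBS. Both groups covered the same range, and the log2 fold change was -0.03 ± 0.13 (SE; 95% interval -0.33 to 0.27), with a sign that turned to 0.05 under scaling by library size. The ratio of Hsp90ab1 to Hsp90aa1 per kb was 4.48, 5.56, 5.42, 5.59 and 6.06 in DOX, against 5.93, 6.16 and 6.24 in PBS. DOX replicate 1 had the lowest ratio, and DOX replicate 5 lay within the range of PBS. Cut into stretches as for Hspa8, Hsp90aa1 shared 47.55% of them with other transcripts, most of them with Gm12346, and Hsp90ab1 shared 0%. The level of Hsp90aa1 and its ratio to Hsp90ab1 therefore also depend on how the authors treated such reads.

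The chaperonin pair of the mitochondrial matrix had fold changes of opposite sign, each with an interval that includes 0. Hspd1 (HSP60) forms the folding chamber and Hspe1 (HSP10) its lid. Hspd1 was at 91.0, 124, 111, 98.4 and 102 CPM in DOX, against 102, 123 and 126 CPM in PBS. In batch 2 the 3 DOX libraries lay below both PBS libraries, a pattern that 15.3% of tested genes had, and in batch 1 they lay on both sides of PBS replicate 1. Its log2 fold change was -0.14 ± 0.14 (SE; 95% interval -0.45 to 0.17), with -0.035 when DOX replicate 1 was counted as PBS. It became -0.25 when PBS replicate 1 was left out and -0.23 when DOX replicate 2 was. Hspe1 was at 70.2, 36.2, 39.7, 51.0 and 40.0 CPM in DOX, against 65.4, 36.5 and 31.6 CPM in PBS. DOX replicate 1 and PBS replicate 1 were the high libraries of their groups, and the groups overlapped. The log2 fold change of Hspe1 was 0.11 ± 0.22 (SE; 95% interval -0.38 to 0.61), and it was -0.0020 without DOX replicate 1 and -0.07 with that library counted as PBS. It was 0.37 without PBS replicate 1, 0.28 without DOX replicate 2, 0.013 without DOX replicate 4 and -0.022 without PBS replicate 3.

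Hspe1 and the Hspd1 start at 55087932 lie on either side of 1 shared stretch, and the ratio of the genes varied by library. The ratio of Hspe1 to Hspd1 per kb was 2.41, 0.912, 1.12, 1.62 and 1.22 in DOX, against 2.01, 0.929 and 0.783 in PBS. DOX replicate 1 and PBS replicate 1, the libraries with the lowest collagen shares, had the highest ratios, and in batch 2 the DOX libraries lay above both PBS libraries. Exons of the genes overlap by 112 bases on opposite strands, so a small part of the counts cannot be assigned without strand. Cut into stretches as for Hspa8, Hspd1 shared 26.94% of them with other transcripts and Hspe1 shared 22.37%. The Hspe1 to Hspd1 ratio therefore also depends on how the authors treated such reads. The ratio of Hspa1b to Hspa1a per kb ran from 0.868 to 1.78 in DOX and from 1.40 to 2.61 in PBS. For a share of constitutive against inducible HSP70, the count of Hspa8 over that of Hspa1a and Hspa1b together was 12.9, 26.9, 126, 42.3 and 39.1 in DOX, against 33.0, 84.7 and 91.3 in PBS. DOX replicate 3 had the highest ratio and the other DOX libraries of batch 2 lay below both PBS libraries of that batch.

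**Figure D2:**
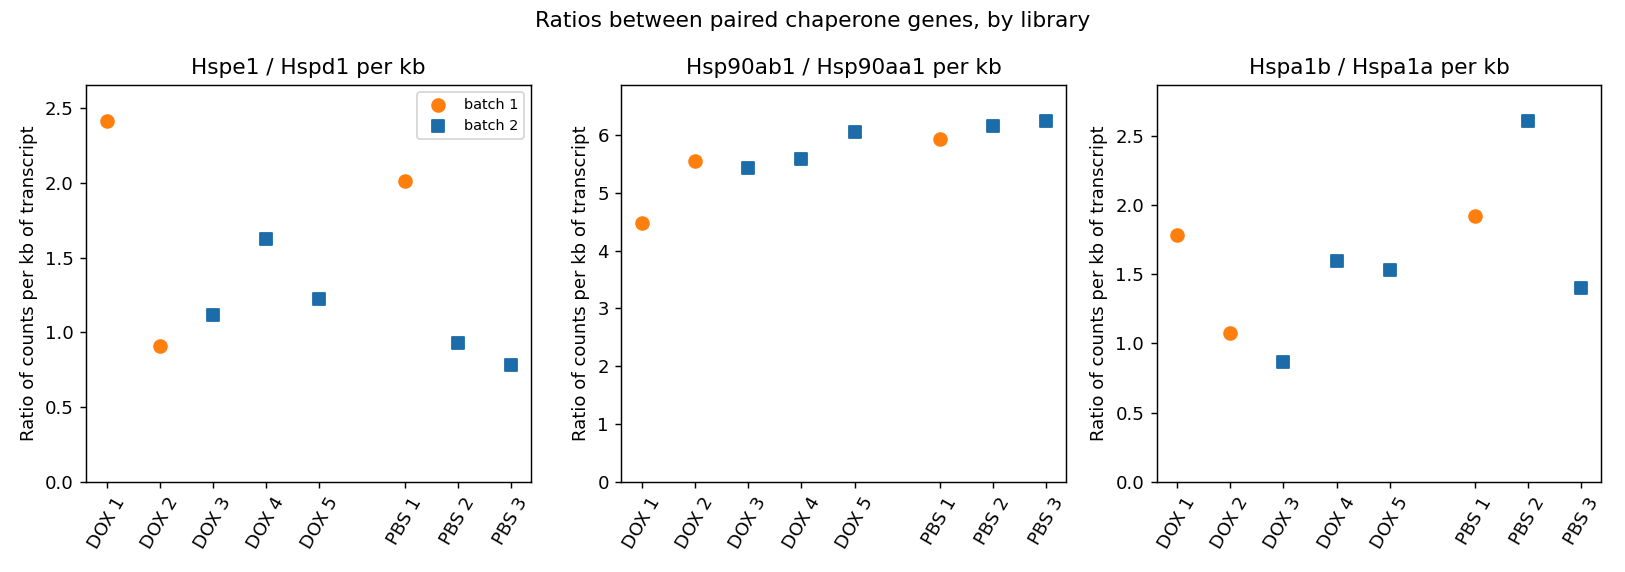
Ratios between paired chaperone genes, as counts per kb of transcript, in each DOX and PBS library; orange circles are batch 1 and blue squares batch 2. The Hspe1 to Hspd1 ratio is highest in DOX replicate 1 (2.41) and PBS replicate 1 (2.01), and the Hsp90ab1 to Hsp90aa1 ratio varies least.

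Within batch 2, where both groups have more than 1 library, 6 of the 10 members had all 3 DOX libraries above both PBS libraries: Hspa1a, Hspa8, Hsp90aa1, Dnajb1, Hspb1 and Hspe1. Of all tested genes, 16% had this pattern. Fitted alone, batch 2 gave 0 called members and 0 called genes. In batch 1, with PBS replicate 1 as the only PBS library, both DOX libraries were above it for 3 members, Hspa1a, Hspa8 and Hsp90aa1, as for 31.1% of tested genes, and both were below it for 1 member, Hspb1, as for 30% of tested genes. The difference between batches in the DOX over PBS change passed the threshold for 0 members, and 1 member, Hspb1, had an unadjusted p under 0.05, as did 11.7% of all tested genes.

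**Figure D3:**
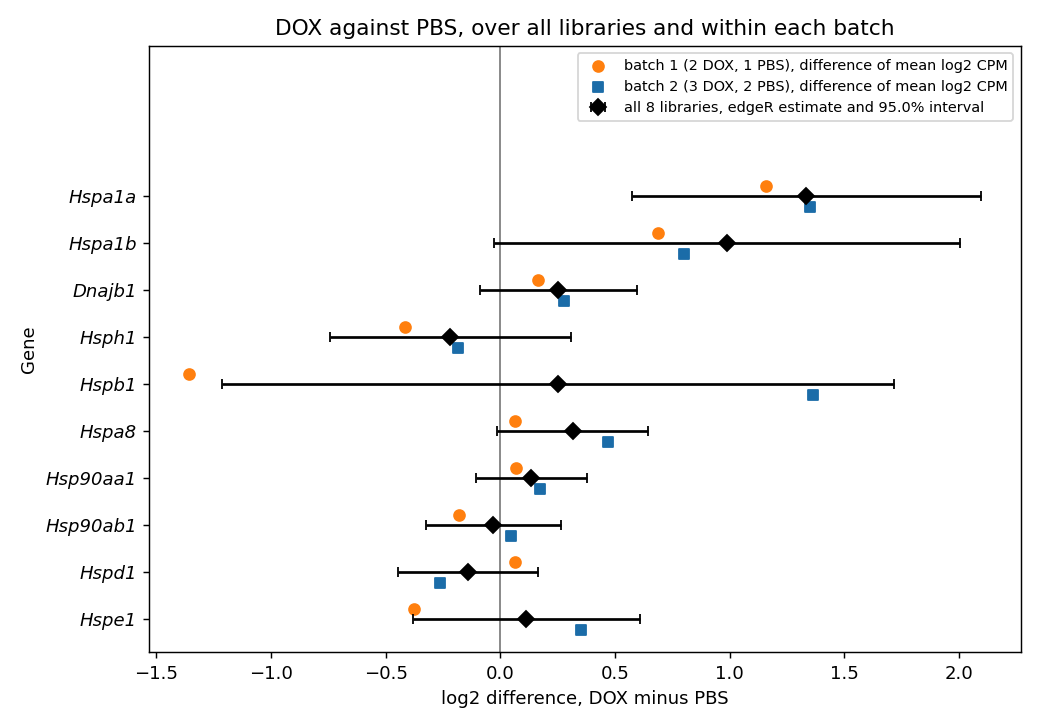
Log2 difference of DOX minus PBS for each chaperone gene. Black diamonds with bars are edgeR estimates with 95% intervals over 8 libraries, orange circles the difference of mean log2 CPM in batch 1, and blue squares that in batch 2. The interval of Hspa1a (0.57 to 2.09) does not reach 0 and those of the other 9 members do, and the batches lie farthest apart, on opposite sides of 0, for Hspb1 (-1.36 and 1.36).

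The median difference of the members was larger between the batches than between the treatments, a contrast that was not itself tested. This comparison was chosen after the values were seen and uses the batch term of the same fit. In batch 1 over batch 2, 9 of the 10 members lay above 0, with a median log2 difference of 0.52 against 0.02 over all tested genes. The exception was Hspd1, at -0.07. Scaling by library size moved the median of all genes to 0.35 and put all 10 members above 0, with Hspd1 at 0.24. For 5 members, Hspa1a, Hspa1b, Hspb1, Dnajb1 and Hsp90aa1, every library of batch 1 lay above every library of batch 2, a pattern that 4.38% of tested genes had.

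Hspb1, Hspa1b and Hspa1a had the largest differences between batches among the members. Hspb1 averaged 2.85 CPM in batch 1 and 0.514 CPM in batch 2, a log2 difference of 2.55 ± 0.64 (SE; adjusted p = 0.166 in edgeR's test). Hspa1b averaged 15.9 CPM in batch 1 and 4.27 CPM in batch 2, a log2 difference of 1.86 ± 0.43 (SE; adjusted p = 0.145 in edgeR's test). Hspa1a averaged 10.6 CPM in batch 1 and 2.98 CPM in batch 2, a log2 difference of 1.79 ± 0.31 (SE; adjusted p = 0.0829 in edgeR's test). Dnajb1, Hsph1 and Hspe1 followed at 0.52, 0.54 and 0.53, and Hspa8, Hsp90aa1 and Hsp90ab1 at 0.29, 0.23 and 0.09. Single libraries set several of these sizes. Without PBS replicate 1 the difference was 1.44 for Hspb1, 0.28 for Hspe1, 0.15 for Hspa8 and 0.0096 for Hsp90ab1. Without DOX replicate 2 it was 0.18 for Hsph1, 0.81 for Hspe1 and 0.018 for Hsp90ab1, and without DOX replicate 1 it was 0.82 for Hsph1, 0.33 for Dnajb1 and 0.21 for Hsp90ab1. Over all libraries 0 members passed, 14 genes did (0.0911% of those tested), and 6 members had an unadjusted p under 0.05, as did 14.6% of tested genes. Leaving out DOX replicate 2 changed these calls. EdgeR's test then called 938 genes (6.18%; 2.74% higher in batch 1), among them 4 members, all higher in batch 1: Hspa1a, Hspa1b, Dnajb1 and Hspe1. Their adjusted p-values in edgeR's test were 0.0232, 0.0283, 0.0205 and 0.0232 in that order. Without PBS replicate 1 it called 0 members and 0 genes. The median of the members was 0.34 without DOX replicate 1. Batch 1 has 1 PBS and 2 DOX libraries, and what defines a batch is not stated in the labels.

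Other gene lists held genes that passed the threshold for batch. Immediate early genes, which cells switch on within minutes of a stimulus such as tissue digestion, summed to 6203, 5535, 3340, 3348 and 4430 CPM in DOX, against 4275, 3394 and 3052 CPM in PBS. Of 28 tested, 23 were higher in batch 1 (median log2 difference 0.96), and Nr4a1 (1.20) and Dusp1 (1.09) passed the threshold for batch (adjusted p = 0.0334 each in edgeR's test). Between DOX and PBS 23 of 28 lay above 0 (median log2 fold change 0.29) and 0 passed. All 11 tested erythroid markers were higher in batch 1, summing to 54.7 to 195 CPM there and 15.3 to 25.4 CPM in batch 2, and 5 passed (Hba-a1, Hba-a2, Hbb-bs, Hbb-bt and Slc4a1). Endothelial markers summed to 14.8 to 44.5 CPM in batch 1 and 14.2 to 18.1 CPM in batch 2, and 7 of 8 tested were higher in batch 1. Reticular stromal markers summed to 840 to 1259 CPM in batch 1 and 531 to 805 CPM in batch 2. Of 9 tested, 8 were higher in batch 1 (median log2 difference 1.19) and 0 passed. Chondrocyte markers summed to 4292 to 9848 CPM in batch 1 and 7494 to 15635 CPM in batch 2. Of these, 5 of 8 tested were higher in batch 1. Osteoclast markers summed to 407 to 455 CPM in batch 1 and 327 to 477 CPM in batch 2. Of these, 3 of 7 tested were higher in batch 1. Of the osteoblast markers 1 of 14 was higher in batch 1. Other blood cell lists had no called gene and no common direction. Of neutrophil markers 6 of 8 were higher in batch 1 (median log2 difference 2.86), but their most abundant gene, Mpo, was at -2.26, and they summed to 9.08 to 38.5 CPM in batch 1 and 0.538 to 122 CPM in batch 2. Of B cell markers 3 of 10 were higher in batch 1 (median -2.10), with sums of 46.6 to 72.8 CPM in batch 1 and 49.8 to 76.8 CPM in batch 2. Of monocyte and macrophage markers 5 of 6 were higher in batch 1 (median 0.17), with sums of 7.74 to 10.8 CPM in batch 1 and 4.93 to 11.5 CPM in batch 2. Retnlg of neutrophils and C1qa of macrophages were at 0 in every batch 2 library. The part of these lists in the chaperone values was not tested.

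The genes whose pattern over the 8 libraries was most like that of the inducible group, taken as the mean log2 CPM of Hspa1a, Hspa1b, Dnajb1 and Hsph1, were Ptges3, Jun, Pigc, Junb and Sphk1. Pearson's r was 0.97, 0.97, 0.96, 0.95 and 0.95 in that order, the highest of 7735 genes compared. Ptges3 encodes p23, a co-chaperone of HSP90, and Jun and Junb are immediate early transcription factors. The libraries share a batch, and with batch means removed r was 0.94, 0.90, 0.85, 0.82 and 0.80. The genes of the group did not all move together, as Hsph1 was lowest in DOX replicate 1, where Hspa1a, Hspa1b and Dnajb1 were highest. Hspa1a and Hspa1b weigh most in the mean, with SDs of log2 CPM of 1.27 and 1.30, against 0.35 for Dnajb1 and 0.44 for Hsph1. For the mean of Hspd1 and Hspe1 the nearest were Septin7 (r = 0.99), Zfp950 (0.97), Ccne2 (0.97), Pou6f1 (0.97) and Supt20 (0.96). That mean is not a pattern both genes share. DOX replicate 1 was the highest library for Hspe1 (70.2 CPM) and the lowest for Hspd1 (91.0 CPM). The SD of log2 CPM was 0.42 for Hspe1 and 0.18 for Hspd1, so the mean follows mainly Hspe1. These values rank genes over 8 libraries and carry no test.

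The rest of the heat shock pathway gave no call between DOX and PBS in any list. For the factors that control the response, 6 of 8 tested genes lay above 0 (median log2 fold change 0.05), and Hsf1, the master regulator, averaged 20.2 ± 3.63 CPM in DOX and 20.6 ± 4.88 CPM in PBS (SD, n = 5 and 3). Hsbp1, a binding protein of HSF1, had a log2 fold change of 0.09 ± 0.16 and Vcp, an ATPase that extracts ubiquitinated proteins, one of 0.01 ± 0.16 (SE). Of 25 HSF1-inducible genes outside the members, 13 lay above and 12 below 0 (median 0.01). Their most abundant genes were Serpinh1, Ubb and Vcp, with Ubb, a polyubiquitin gene, at 0.11 ± 0.13. In batch 1 over batch 2 the median of these 25 genes was 0.07, with 16 higher in batch 1, beside 0.52 for the members. Some of these genes, such as Serpinh1 and Vcp, also stand in another list.

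The lists of genes that work with HSP70 had medians between -0.04 and 0.12, and none of their genes passed. Among other HSP70 and HSP110 genes, a list that is not all cytosolic, 4 of 7 lay above 0 (median 0.12). Hspa13 was at -0.05 ± 0.14, Hspa4 at -0.12 ± 0.14 and Hspa2 at 0.12 ± 0.19 (log2 fold change, SE). The widest value in that list was 1.09 ± 0.56 for Hspa12b, a gene named here after its value was seen, at a mean of 0.811 CPM in DOX and 0.388 CPM in PBS. It did not pass (adjusted p = 0.995 in edgeR's test). Of the J-domain proteins, 7 of 16 lay above 0 (median -0.04, range -0.41 to 0.20). Dnaja1, the most abundant of them, averaged 101 ± 12.7 CPM in DOX and 110.1 ± 16.8 CPM in PBS (SD), and Dnajc8 and Dnaja2 had log2 fold changes of 0.01 and -0.01. Of the list of exchange factors and BAG proteins, which release clients from HSP70, 3 of 9 lay above 0 (median -0.02). Bag1 stood at 0.09 and Bag5 at 0.04. St13, an HSP70-interacting protein of neither class that was kept in this list, stood at -0.15.

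HSP90 co-chaperones were split, with 9 of 19 above 0 (median -0.01, range -0.44 to 1.45). Ptges3 averaged 103 ± 5.88 CPM in DOX and 99.98 ± 5.92 CPM in PBS (SD), Cdc37, which brings kinases to HSP90, had a log2 fold change of 0.01 ± 0.12, and Fkbp4, which acts with steroid receptors, one of -0.06 ± 0.13 (SE). All 6 tested genes of the small heat shock protein list, which leaves out Hspb1, lay above 0 (median 0.25, range 0.06 to 1.16). Hspb11 is not of that protein family and was kept in this list. Cryab, alpha B-crystallin, averaged 180 ± 34.5 CPM in DOX and 158 ± 47.8 CPM in PBS, with a log2 fold change of 0.24 ± 0.14, and Hspb2 and Hspb11 had values of 0.26 ± 0.20 and 0.18 ± 0.27. In batch 1 over batch 2 the median of these 6 genes was -0.27, against 2.55 for Hspb1.

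Chaperones of the other compartments did not pass either. For the TRiC chaperonin, which folds actin and tubulin, and its partner prefoldin, 11 of 14 lay above 0 (median 0.03), with Cct6a at -0.02, Cct7 at 0.10 and Cct5 at 0.03. Of the mitochondrial chaperones and proteases beside Hspd1 and Hspe1, 8 of 16 lay above 0 (median -0.01). Hspa9, the HSP70 of mitochondria, averaged 115 ± 17.7 CPM in DOX and 136 ± 16.6 CPM in PBS (SD), a log2 fold change of -0.23 ± 0.15 (SE), and its exchange factor Grpel1 had 0.27 ± 0.17, while the protease Yme1l1 had -0.04 ± 0.12. Of the endoplasmic reticulum chaperones, 3 of 14 lay above 0 (median -0.06). The collagen chaperone Serpinh1 averaged 5419 ± 940 CPM in DOX and 5340 ± 1079 CPM in PBS, and Hspa5, the HSP70 of that compartment, 1024 ± 164 CPM and 1095 ± 208 CPM (SD). Pdia3, which forms disulfide bonds, had a log2 fold change of -0.05 ± 0.14.

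**Figure D4:**
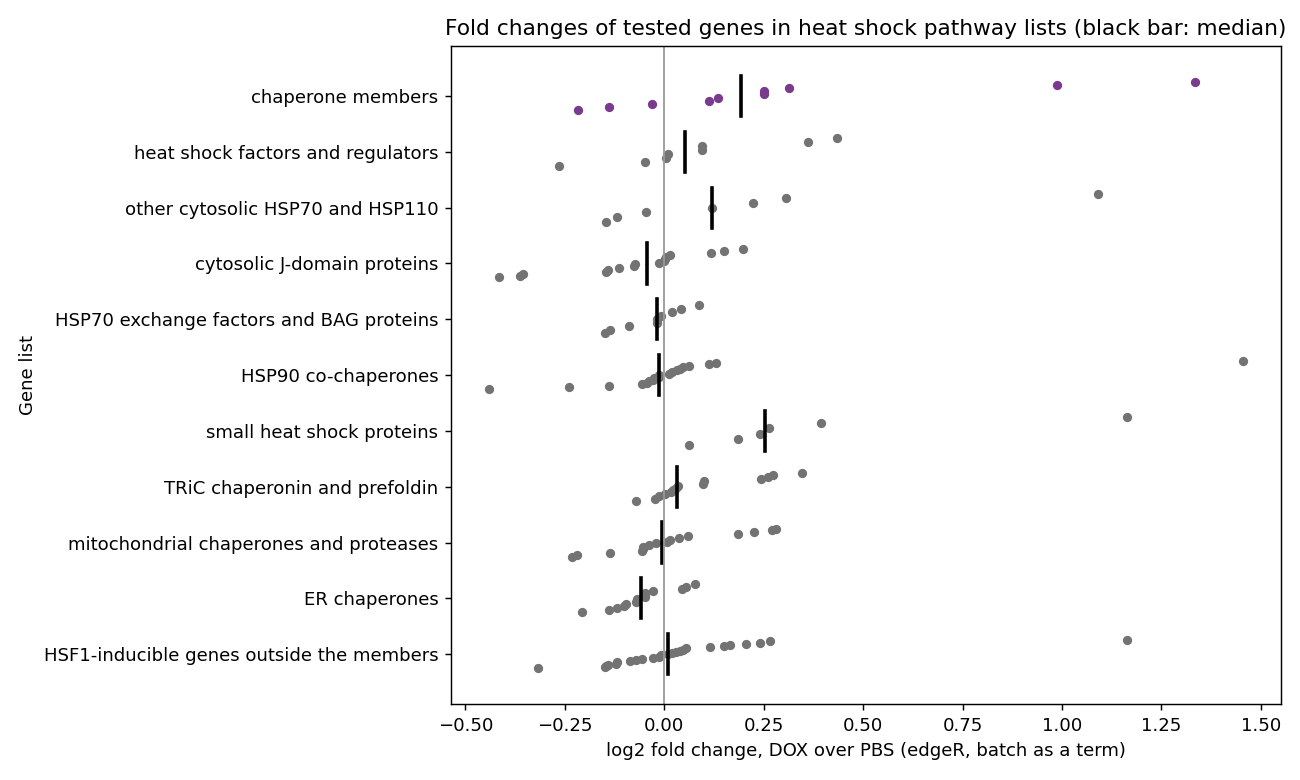
Log2 fold change of DOX over PBS, from edgeR with batch as a term, for each tested gene of the chaperone group (top, purple) and of the other heat shock pathway lists (grey); black bars are medians. Hspa1a (1.33) and Hspa1b (0.99) lie to the right of the other members, and the medians of the lists run from -0.06 to 0.25.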

How the data were processed

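Messenger RNA of 8 libraries was measured by RNA-seq from total RNA with the SMART-Seq v4 Plus kit, per the labels' protocols, a full-length cDNA chemistry that keeps no strand. The deposited values are raw counts per gene symbol. Per the submitters' processing notes the authors used Trim Galore 0.6.6, STAR 2.7.9a and featureCounts 2.0.1 on build GRCm39, and how reads with more than 1 match were treated is not given there. The lowest total of a gene was 10 counts. Counting error alone is small at these depths except for Hspb1, Hspa1a and Hspa1b. Hspa1a fell to 39 counts in PBS replicate 2 and Hspa1b to 73 counts in DOX replicate 3. No molecular identifiers are named.

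The tests ran over the whole table in R 4.3.3 with edgeR 4.0.16 (TMM, filterByExpr, quasi-likelihood test, batch and group as terms, two-sided, Benjamini-Hochberg over 15373 genes, threshold 0.05), with DESeq2 1.42.0 and limma 3.58.1 as alternatives. The script was tested on simulated counts. Each SE is the fold change divided by the square root of its F value, and log2 CPM carry a prior count of 2. Levels per kb use the longest protein-coding transcript in GENCODE M21. Plots were drawn with matplotlib 3.10.9.

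All members are named, and in each other list any called gene or else the 3 most abundant. As genes of like pattern the 5 with the highest Pearson r were taken, among genes of at least 3 mean log2 CPM. The members, lists and tests were chosen with earlier results of these data known. The alternatives were other scalings, filters and tools, no batch term, batch 2 alone, a replicate block, and libraries left out.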

Additional observations from a re-analysis of the deposited data

Results flagged for a closer look

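Of 45 sets of 5 DOX values examined, 8 had a highest or lowest library far from the rest; chance gives about 1 in 20 such sets. That rate takes the 5 DOX libraries as 1 uniform group, although DOX replicates 1 and 2 are of batch 1 and DOX replicates 3 to 5 of batch 2. DOX replicate 1 was the odd library in 5 of them. It had 115.6 CPM of Dnajb1, with the nearest DOX library at 71.4 CPM, and a hemoglobin share of 0.0120%, with the nearest at 0.00283%. It was the lowest for Hspa4, an HSP110 relative, at 41.5 CPM (nearest 58.4), for Cdc37 at 81.5 CPM (nearest 104.3) and for Pdia3 at 710.0 CPM (nearest 916). DOX replicate 2 was the highest for Hsph1 at 30.8 CPM (nearest 17.5) and for Fkbp4 at 97.3 CPM (nearest 76.2). In DOX replicate 3 the count ratio of Hspa8 to Hspa1a plus Hspa1b was 126, with the nearest at 42.3.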

How the results depend on the processing

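The count of called chaperone genes for DOX against PBS was 0 under all 20 alternatives, and genes called overall were 0 except for 15 with DESeq2. The members' median log2 fold change lay between 0.07 (PBS replicate 3 left out) and 0.33 (PBS replicate 1 left out), and Hspa1a ran from 0.85 to 1.63, with adjusted p between 0.0905 and 1.0. Signs turned for small effects. Hsp90ab1 was 0.046 with library size alone, 0.024 with limma-voom, 0.055 in batch 2 alone, 0.093 with DOX replicate 1 counted as PBS, 0.053 without DOX 1 and PBS 1 together, and -0.094 to 0.059 with 1 library left out. With DOX replicate 1 counted as PBS, Hsph1 was 0.12 and Hspe1 -0.074. With 1 library left out, Hspe1 ran from -0.022 to 0.37 and Hspb1 from -0.30 to 1.56, and Hspb1 was -0.57 with no batch term. The cause of these turns was not tested.

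For the DOX over PBS change in batch 2 minus that in batch 1, 10 genes passed without DOX replicate 1 and 58 without DOX replicate 2, with 0 members in either. That difference was 0.22 for Hspd1 with library size alone, and with 1 DOX library of batch 1 left out it ran from -0.12 to 0.62 for Hspa1a, -0.36 to 1.11 for Hspa1b, -0.37 to 0.86 for Hsph1 and -0.23 to 0.47 for Dnajb1. Between the batches themselves, with all alternatives added after the values were seen, called genes numbered 14, 8 with library size alone, 5 with DOX replicate 1 counted as PBS and 0 to 938 with 1 library left out, and called members 0 to 4. Hspd1 was 0.24 with library size alone and ran from -0.24 to 0.047 with 1 library left out.

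With the replicate number as a replicate block in place of batch, 0 genes and 0 members passed and Hspa1a was 1.63. Whether the numbers pair the libraries is not known. Deviations from the group means of same-numbered libraries correlated at 0.25, -0.05 and 0.24. The first and last of these were the highest of all DOX with PBS pairs, and DOX replicate 2 correlated best with PBS replicate 1. Batch was left in these deviations, and DOX replicate 2 and PBS replicate 2 are of different batches, so the correlations cannot decide it.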
